A study of Mus musculus with 6 samples.

Results

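The genes described here are the 8 named genes of the Stk19-C4-Cyp21 segment of mouse chromosome 17, taken by symbol from a deposited table of counts for 45777 genes: Tnxb, C4b, Stk19-ps1, Cyp21a1, C4a, Stk19, Dxo and Skiv2l. All 8 were in the table, and 7 passed the filter on low counts, Cyp21a1 being the exception. The counts come from RNA sequencing of the anterior cingulate cortex, which lies on the inner face of the frontal lobe, in BALB/c mice, an inbred strain. 3 libraries were made from mice that went through social defeat stress, repeated subordination by an aggressive mouse, for 5 days, and the other 3 from non-stress mice of the same strain. The labels give no age and do not say whether each library is a separate animal, so the spread between libraries may be technical. The segment was chosen by the counts of Stk19-ps1 in these 6 libraries, which differed between the groups in an earlier look at the same table, and the other genes were taken as its neighbours. The stress comparison therefore describes the 8 genes and gives no p-value for any of them.

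The segment lies in the class III part of the major histocompatibility complex (MHC), a gene-dense stretch between the class I and class II antigen-presenting genes that holds several complement genes. During evolution a block with Stk19, a C4 gene, a Cyp21 gene and a tenascin-X gene was duplicated, and some of the copies later decayed into pseudogenes. Complement C4 is the protein that the first enzymes of the classical and lectin pathways cut so that it becomes attached to a target, and in the brain it takes part in the tagging of synapses for removal. Cyp21a1 encodes steroid 21-hydroxylase, an adrenal enzyme required for corticosterone, the main stress hormone of the mouse.

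In the GRCm38 assembly, which comes from another strain (C57BL/6J), Tnxb (chromosome 17, 34660453 to 34719815) is followed by the pseudogene Cyp21a2-ps, then by C4b (34728139 to 34743902) and Stk19-ps1 (34744469 to 34747158). Beyond the pseudogenes Skiv2l-ps1 and Tnxa come Cyp21a1 (34801348 to 34804426), C4a (34809092 to 34823460) and Stk19 (34823993 to 34836903), and the row ends with Dxo (34836996 to 34839187) and Skiv2l (34839226 to 34850204). 566 bases separate C4b from Stk19-ps1, and 532 bases separate C4a from Stk19. Dxo is read from the opposite strand to Stk19, and 92 bases lie between them. Tnxb overlaps Cyp21a2-ps by 385 bases on opposite strands in RefSeq, and in GENCODE the exons of Dxo and Skiv2l overlap by 6 bases. RefSeq lists Stk19-ps1 as a pseudogene and C4a as a transcribed pseudogene, and the other 6 as protein-coding.

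Since the main result concerns counts assigned to one copy of a duplicated gene, the transcripts of the copies were compared. The annotated Stk19-ps1 transcript has 5 exons and 517 bases, and it aligned over its whole length to the coding part of Stk19, from base 307 to the end of the stop codon at base 834 of a transcript of 1120 bases. Of the 517 aligned bases 502 were identical (97.1%). Stk19-ps1 also lacked 1 base and, further on, 10 bases that Stk19 has, which together shift the reading frame. The stretch that holds both deletions is shown 5′ to 3′ for each copy, bases 51 to 150 of Stk19-ps1 and bases 357 to 467 of Stk19, with the bases that differ or have no counterpart in capitals.
Stk19-ps1: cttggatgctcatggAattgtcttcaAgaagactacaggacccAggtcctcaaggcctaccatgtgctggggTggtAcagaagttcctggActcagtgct
Stk19: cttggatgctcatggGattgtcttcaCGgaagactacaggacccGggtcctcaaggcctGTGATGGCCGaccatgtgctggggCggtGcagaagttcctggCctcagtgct
A read from this stretch can be told apart between the copies. The last 140 bases of Stk19-ps1 are letter for letter the end of the Stk19 coding sequence, the longest identical stretch of the pair, and a read inside them fits both copies equally.
Stk19-ps1 and Stk19: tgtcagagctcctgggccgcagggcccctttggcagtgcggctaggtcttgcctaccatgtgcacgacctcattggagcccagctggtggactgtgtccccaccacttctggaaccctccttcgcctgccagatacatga
Of all 468 windows of 50 bases in Stk19-ps1, 27.6% were found unchanged in this Stk19 transcript, and of 368 windows of 150 bases 0% were. These values hold for the C57BL/6J reference, and the BALB/c sequence was not used here. They also hold for the GENCODE transcript only. Stk19-ps1 lies on the minus strand and reaches down to position 34744469 in RefSeq but to 34744753 in GENCODE. The further bases at its 3′ end in RefSeq were not compared.

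C4b and C4a were slightly further apart. Over 5366 aligned bases 5162 were identical (96.2%), with 204 mismatches, and the longest identical stretch was 433 bases. 35.2% of the 50-base windows of C4b occurred unchanged in C4a. Among stretches of 100 aligned bases without a gap, the most differences were 15. The first stretch with that many is bases 1209 to 1308 of C4b and 1212 to 1311 of C4a, where a read can be told apart between the copies. Stretches with a gap were left out, among them the one where C4a lacks 8 bases of C4b.
C4b: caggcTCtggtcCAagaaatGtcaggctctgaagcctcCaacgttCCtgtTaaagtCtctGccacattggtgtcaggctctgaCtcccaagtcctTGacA
C4a: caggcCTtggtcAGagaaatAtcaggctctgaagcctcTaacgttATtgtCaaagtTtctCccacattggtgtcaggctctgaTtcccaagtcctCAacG

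**Figure D1:**
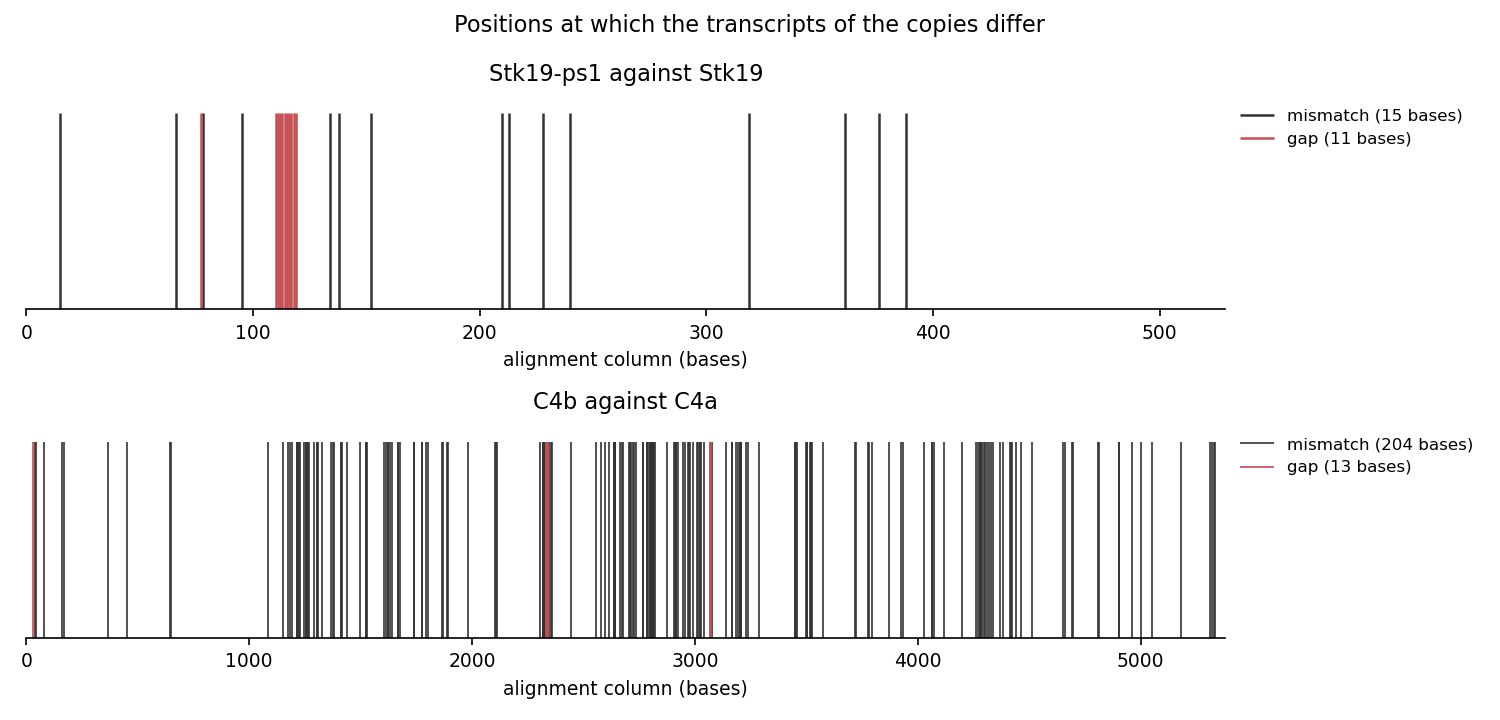
Positions of mismatches (black) and missing bases (red) along the alignment of the annotated transcripts of Stk19-ps1 and Stk19 (top) and of C4b and C4a (bottom), in bases from the start of the alignment. The 15 mismatches and 11 missing bases of Stk19-ps1 lie before its last 140 bases, while the 204 mismatches of the C4 pair are spread over most of the transcript.

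The totals of the libraries ranged from 41623899 to 47212982 counts, and values are given as counts scaled to 1e+06 counts of the library's total (CPM), mean ± SD of 3 libraries. The libraries did not divide by group alone. On the first principal component of 19227 genes (34.5% of the variance) non-stress 2 and 3 lay at 37.4 and 27.4, and non-stress 1 (-11.7) lay near the stress libraries (-20.4 to -14.9). Markers of cortical neurons were plentiful, with summed levels of 9485 to 9650 CPM in non-stress and 9287 to 9400 CPM in stress for 5 genes. These sums did not overlap, with stress lower. For 2 of the 5 genes every stress library lay below every non-stress library, against 9.43% of all genes tested. The all-gene edgeR fit described below called 0 of the 5. In bulk tissue, fewer cells of a type and less RNA per cell cannot be told apart.

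Stk19-ps1, the decayed copy next to C4b, had 0, 0 and 0 counts in non-stress libraries 1, 2 and 3 and 73, 65 and 60 counts in stress libraries 1, 2 and 3. Every stress library therefore held it and no non-stress library did. The stress mean was 1.53 ± 0.210 CPM. With 3 counts for the whole non-stress group taken as the floor, the observed stress mean was 67.4-fold that floor. This bound covers only the counting error of independent counts in the non-stress group, and the stress mean is taken as observed. Without stress 1 the bound was 62.5-fold. It fell to 43.4-fold to 46.0-fold when one non-stress library was left out, because the floor then rests on 2 libraries. In edgeR's quasi-likelihood fit across all genes, 1 of the 8 segment genes (7 of them tested) was called, Stk19-ps1. The share called was 0.00520% of all 19227 genes tested, made up of Stk19-ps1 alone. Since this difference chose the segment, nothing is read from that count. Groups that did not overlap with stress higher were seen in 8.43% of all genes tested, and in 1 of the 8 here. The call did not hold without stress 1, stress 2 or stress 3. DESeq2 gave an adjusted p to 12144 of these genes and called 1.05% of them. It called 0 of the 8, but a gene without an adjusted p could not be called, and Stk19-ps1 had none. Cyp21a1 was not tested, and scarce genes such as C4b, C4a and Tnxb may lack one too. That count is therefore no sign that the 8 genes were unchanged.

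Markers of the pituitary, the hormone gland below the brain, were higher in the same libraries. The 4 genes summed to 1.14 to 2.81 CPM in non-stress and 3.45 to 13.8 CPM in stress. In 3 of the 4 every stress library lay above every non-stress library. Only 2 of the 4 were tested, and this held for those 2, against 8.43% of all genes tested. Gh, the growth hormone gene, had 9, 6 and 0 counts in non-stress and 337, 400 and 30 in stress. Prl, the prolactin gene, had 0, 0 and 0 counts in non-stress and 31, 39 and 7 in stress. Pomc, the corticotropin precursor gene, which hypothalamic neurons also express, had 108, 67 and 46 counts in non-stress and 165, 148 and 118 in stress. Stress 3 thus held far fewer Gh and Prl counts than the other stress libraries, while its Stk19-ps1 count was close to theirs. Cga, the shared hormone subunit gene, overlapped between the groups at 0 to 12 counts. Of the 2 tested, Gh and Pomc, edgeR called 0 (edgeR adjusted p = 0.285 and 0.344). Both had an unadjusted edgeR p under 0.05, as had 12.1% of all genes tested. DESeq2 gave neither an adjusted p. The part of these markers in the Stk19-ps1 values was not tested.

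Stk19, the intact gene, encodes a nuclear protein first described as a kinase and later as a factor in DNA repair coupled to transcription. It had 1123, 1297 and 1190 counts without stress and 1179, 1205 and 1160 with stress. The groups overlapped almost completely, with means of 27.3 ± 1.16 CPM (non-stress) and 27.3 ± 1.30 CPM (stress) and a log2 fold change of 0.0012 (SE 0.06). The SDs of Stk19 were nearly as large as the level of Stk19-ps1, so a shift of that many counts from one copy to the other was not detectable. Of the counts of the pair, Stk19-ps1 took 5.83% in stress 1 (95% exact binomial interval 4.60% to 7.28%), 5.12% in stress 2 (3.97% to 6.48%) and 4.92% in stress 3 (3.77% to 6.29%). In the non-stress libraries the share was 0%, where 3 counts would be 0.267%, 0.231% and 0.252% of the pair. Added together, the copies reached 27.3 ± 1.16 CPM without and 28.8 ± 1.49 CPM with stress, with overlapping groups (log2 fold change 0.08, SE 0.06).

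**Figure D2:**
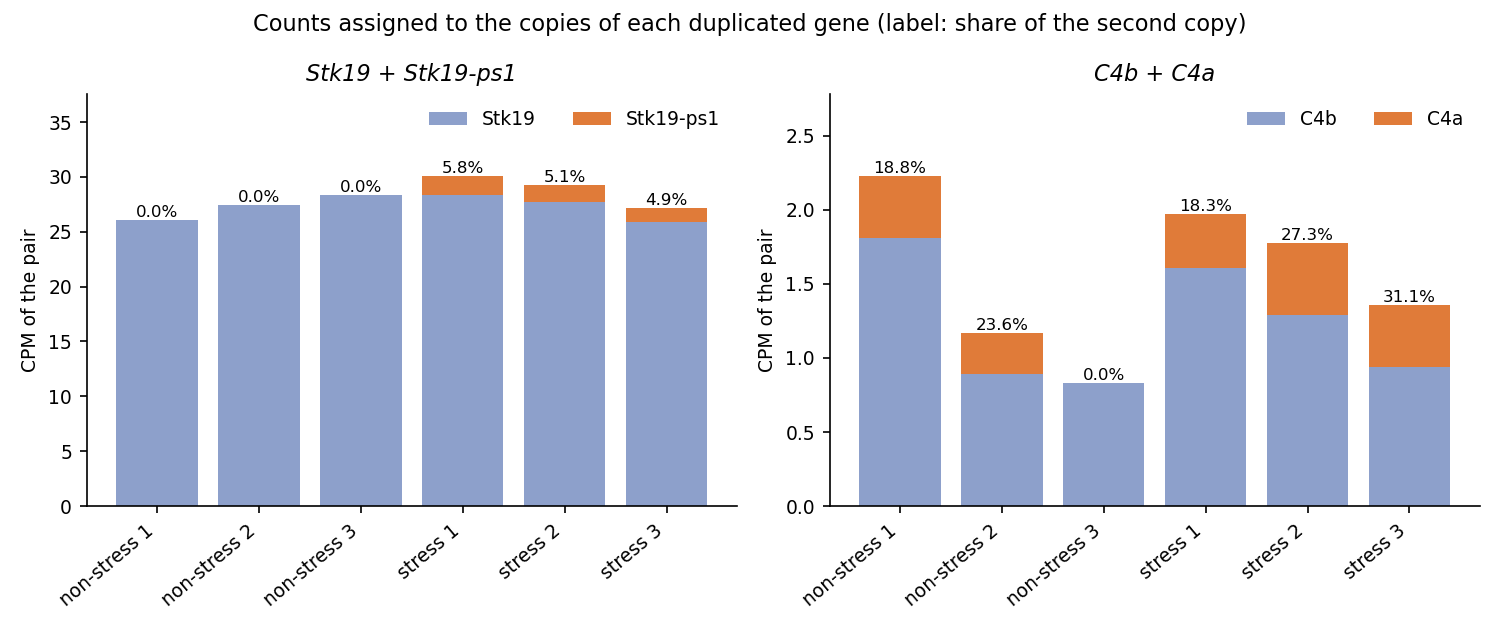
Levels in CPM of Stk19 with Stk19-ps1 (left) and of C4b with C4a (right), stacked for each of the 6 libraries, with the share of the second copy above each bar. Stk19-ps1 takes 4.92% to 5.83% of its pair in the stress libraries and 0% in the non-stress libraries, while the height of the bars overlaps between the groups.

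A count of 0 in some libraries beside clear counts in others was not unique to Stk19-ps1 in this table. In all, 27 genes had 0 counts in at least 1 library and 50 or more in another. In 17 of them a single library was at 0, and in 8 of those the other 5 libraries each held at least 50 counts. Examples chosen after their values were seen are Adnp, a chromatin regulator gene expressed in neurons, with 789, 1150, 1021, 943, 956 and 0 counts, and Slc10a3, with 188, 227, 229, 0, 228 and 196 counts, both in the order non-stress 1 to 3 and stress 1 to 3. Among the 27 genes, Stk19-ps1 was the only one whose libraries at 0 were exactly 1 of the groups. It was also the only gene of the table with 0 in one group and at least 20 counts in every library of the other. Under that cutoff, Prl and the airway secretory gene Bpifa1 likewise had 0 counts in every non-stress library and counts in every stress library. Since the counts of Stk19-ps1 chose the segment, nothing is read from its place among these genes. Of the 750 genes whose symbol carries a -ps suffix, 241 passed the filter on low counts. The other 4 with counts in every library of one group and 0 in the other, 2 in each direction, had 1 to 4 counts per library. What sets these zeros was not tested.

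**Figure D3:**
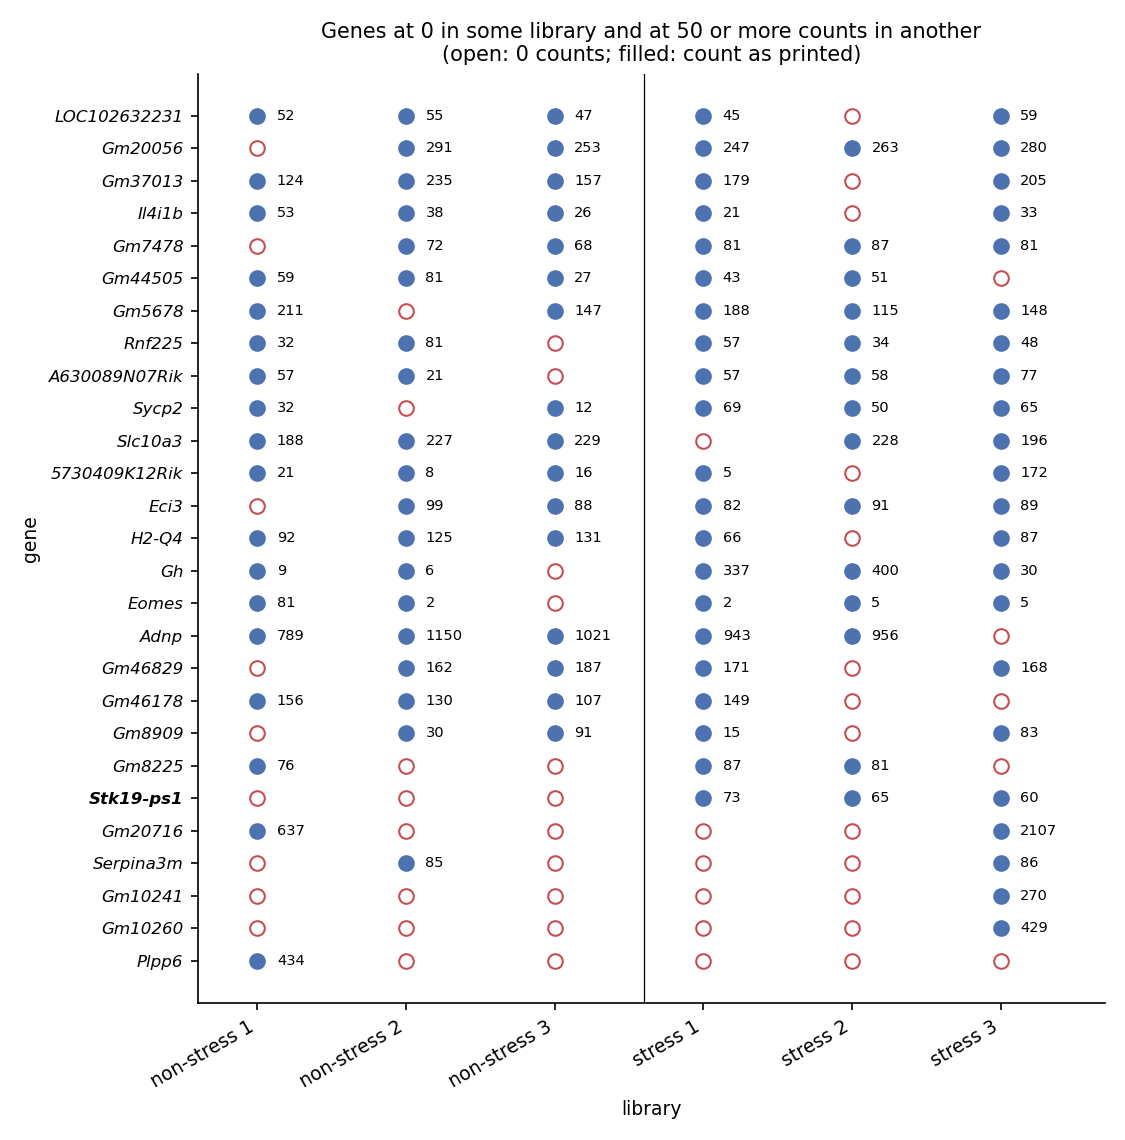
The 27 genes with 0 counts in at least 1 of the 6 libraries and 50 or more in another, 1 row a gene, with open circles for 0 and filled circles beside the count. In 17 genes a single library is at 0, and only in Stk19-ps1 do the zeros fill 1 group, non-stress, and spare the other.

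C4b encodes complement C4 proper, which in the brain is made by glia such as astrocytes and oligodendrocytes. It was scarce, with 78, 42 and 35 counts in non-stress and 67, 56 and 42 counts in stress. The groups overlapped, with the highest value in non-stress 1 and the lowest in non-stress 3. The means were 1.18 ± 0.548 and 1.28 ± 0.337 CPM (log2 fold change 0.12, SE 0.33). Without non-stress 1 the log2 fold change was 0.56, and without non-stress 2, non-stress 3 or stress 1 it was -0.05, -0.07 and -0.08, so single libraries set its sign. Astrocyte markers summed to 883 to 921 CPM in non-stress and 856 to 880 CPM in stress, and oligodendrocyte markers to 4799 to 5923 and 5299 to 5723 CPM, with none of the 10 at 0 in all libraries. The astrocyte sum rests mostly on Slc1a3 and Gja1. Gfap, the astrocyte filament gene, had 26.6, 5.32 and 4.74 CPM in non-stress 1, 2 and 3 and 12.5 to 14.5 CPM in stress. It was thus highest in the library where C4b was highest. The other listed astrocyte markers peaked elsewhere, Aldh1l1 and Slc1a3 in non-stress 2, Gja1 in non-stress 3 and Aqp4 in stress 3. The part of these markers in the C4b values was not tested.

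C4a corresponds to sex-limited protein, a C4 relative without the usual complement activity whose expression depends on the MHC haplotype of the strain. It had 18, 13 and 0 counts in non-stress and 15, 21 and 19 counts in stress. All libraries but non-stress 3 held 13 to 21 counts, and the groups overlapped through non-stress 1. The means were 0.231 ± 0.212 and 0.422 ± 0.0615 CPM (log2 fold change 0.85, SE 0.68), and the log2 fold change was 0.29 without non-stress 3. Outside that library C4a took 18.3% to 31.1% of the counts of the C4 pair. In non-stress 3 the share was 0 of 35 counts, where 3 counts would be 8.57%. The pair together had 1.41 ± 0.728 CPM without and 1.70 ± 0.312 CPM with stress (log2 fold change 0.27, SE 0.33), which dropped to 0.01 without non-stress 3 and rose to 0.76 without non-stress 1.

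Tnxb encodes tenascin-X, a matrix protein of connective tissue. It had 19, 22 and 12 counts in non-stress and 0, 18 and 10 counts in stress. As for C4a, one library, here stress 1, was at 0 while the other 5 held 10 counts or more, a pattern that 49 genes of the table showed, 7 of them with stress 1 at 0 and 10 with non-stress 3 at 0. The groups overlapped, at 0.398 ± 0.0975 and 0.212 ± 0.207 CPM (log2 fold change -0.89, SE 0.70). It was -0.33 without stress 1 and -1.77 without stress 2. Markers of meningeal fibroblasts, cells of the brain's coverings, summed to 20.6 to 23.9 CPM in non-stress and 23.2 to 24.0 CPM in stress over 5 genes, none of them at 0 throughout. Most of that sum was Pdgfra (14.3 ± 0.242 and 15.3 ± 0.400 CPM), which also marks oligodendrocyte precursors. The other 4 genes went both ways, with log2 fold changes of -0.48 for Col1a1, -0.22 for Col1a2, 0.48 for Dcn and 0.27 for Lum, none of which edgeR called over all 6 libraries. Their part in the Tnxb values was not tested.

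Cyp21a1, the 21-hydroxylase gene, had 0 counts in each of the 6 libraries, as did its decayed copy Cyp21a2-ps. A floor of 3 counts is 0.0635 to 0.0721 CPM in a single library, so a level below that was not detectable at this depth. The adrenal genes Cyp11b1 and Cyp11b2, which act after Cyp21a1 in hormone synthesis, were at 0 in all 6 libraries too. The other 2 adrenal cortex markers listed were not: Star, which brings cholesterol into mitochondria and is also a member of the steroid list, had 67 to 113 counts in every library, and Mc2r, the corticotropin receptor gene, had 4 counts in stress 2 and 0 elsewhere.

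Skiv2l encodes the helicase of the Ski complex, which feeds RNA into the cytoplasmic exosome for decay. It had 2198, 2957 and 2145 counts in non-stress and 2002, 2150 and 2187 in stress. In CPM every stress library (48.1 to 49.5) lay below every non-stress library (51.0 to 62.6). Means were 54.9 ± 6.69 and 48.8 ± 0.693 CPM (log2 fold change -0.17, SE 0.08), and the log2 fold change was -0.06 without non-stress 2, which held the highest value. Groups that did not overlap with stress lower were seen in 9.43% of all genes tested. Dxo, an enzyme that removes faulty caps from RNA and degrades it, had 855, 1152 and 847 counts in non-stress and 834, 891 and 978 in stress. Its groups overlapped, at 21.5 ± 2.54 and 20.8 ± 0.908 CPM (log2 fold change -0.05, SE 0.09), and non-stress 2 was again the highest library. Without non-stress 2 the log2 fold change of Dxo was 0.06.

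**Figure D4:**
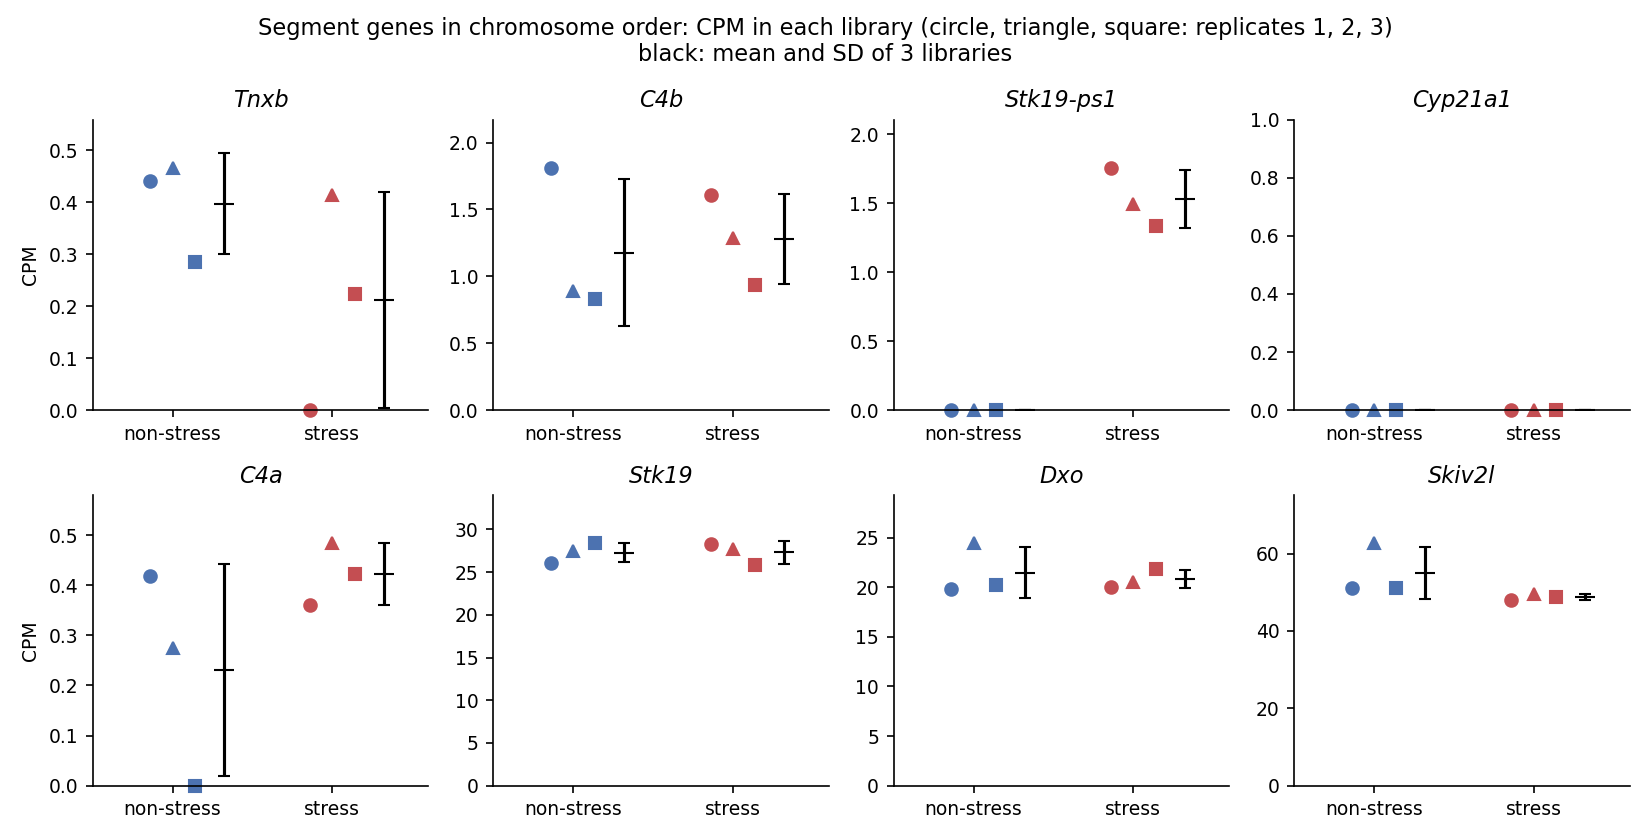
CPM of the 8 segment genes in chromosome order, 1 panel a gene with its own axis from 0, with each library as a point (circle, triangle and square for replicates 1, 2 and 3) and the mean and SD of 3 libraries in black. In Stk19-ps1 and Skiv2l the groups do not overlap, Cyp21a1 is at 0 throughout, and C4a and Tnxb each have a single library at 0.

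Per length of the longest coding transcript (for C4a and Stk19-ps1 the longest annotated one), the non-stress levels ran from Stk19 at 24.4 ± 1.03 CPM per kilobase through Dxo at 14.1 ± 1.67 and Skiv2l at 13.9 ± 1.69, which did not differ beyond their spread. C4b followed at 0.219 ± 0.102, and C4a at 0.0430 ± 0.0395 and Tnxb at 0.0326 ± 0.00799 CPM per kilobase did not differ beyond their spread. In stress the order was the same, with Stk19-ps1, at 2.96 ± 0.407 CPM per kilobase of its GENCODE transcript, between Skiv2l and C4b. There Dxo at 13.7 ± 0.598 and Skiv2l at 12.3 ± 0.175 CPM per kilobase were further apart than their SDs, as were C4a at 0.0786 ± 0.0114 and Tnxb at 0.0174 ± 0.0170.

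The profile over the 6 libraries nearest to that of Stk19-ps1, by root mean square difference of centred log2 CPM, was that of Bpifa1, an airway secretory gene (difference 0.98, with 0, 0 and 0 counts in non-stress and 16, 21 and 12 in stress). Gh (1.35), and Slc26a3, an anion exchanger gene of the gut (1.55), came next. None of these 3 lies on chromosome 17, and edgeR gave them adjusted p = 0.166, 0.285 and 0.346. The points are the same 6 libraries and the genes were the nearest of 19227, so these values only describe the libraries.

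The surrounding class III genes were examined to see whether the neighbourhood moved with Stk19-ps1. Of 46 listed genes 40 were tested, and edgeR called 0 in either direction. DESeq2 called 0 of those that it gave an adjusted p. An unadjusted p under 0.05 was seen for 5 of the 40, near the 12.1% of all genes tested. 15 lay above 0 and 25 below, with a median log2 fold change of -0.07, where all genes tested had -0.00053. In 5 genes the groups did not overlap, each with stress lower, against 9.43% of all genes tested with stress lower and 17.9% in either direction. Among them Ehmt2, a histone methyltransferase gene, had means of 52.6 ± 1.48 and 46.0 ± 1.74 CPM (log2 fold change -0.19, SE 0.05, edgeR adjusted p = 0.344). Prrc2a, which encodes a reader of methylated RNA, had a log2 fold change of -0.47 (SE 0.13, edgeR adjusted p = 0.344). The nearest gene before Tnxb, the stress-sensor gene Atf6b, had a log2 fold change of -0.16 (SE 0.08, edgeR adjusted p = 0.430), and the nearest beyond Skiv2l, the elongation factor gene Nelfe, one of 0.06 (SE 0.06, edgeR adjusted p = 0.690). Without non-stress 1, edgeR called 1 gene of the list, Vars, but in that setting it called 756 of all 19616 genes tested (3.85%).

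**Figure D5:**
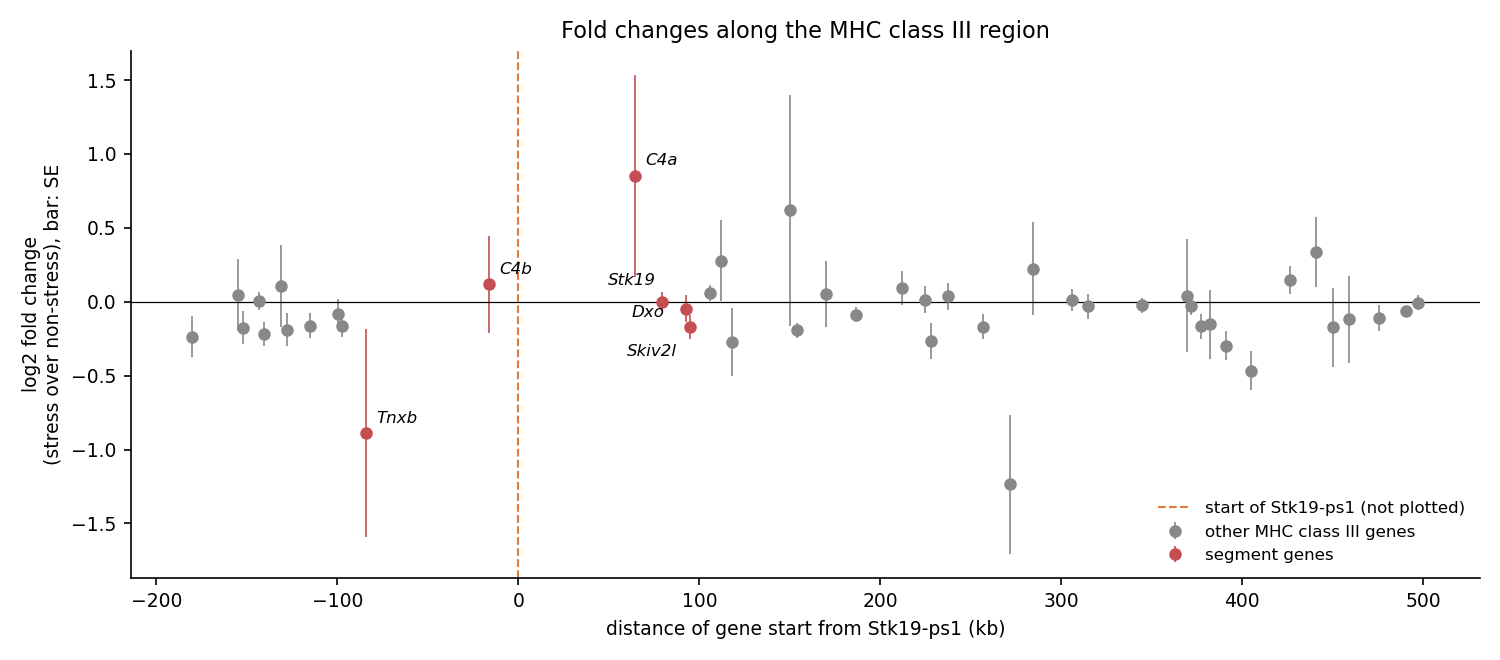
Log2 fold change (stress over non-stress, bars: SE) of 6 segment genes in red and of 40 other MHC class III genes in grey, against the distance of the gene's start from that of Stk19-ps1 in kilobases. Stk19-ps1 is marked by the dashed line only, since its non-stress counts are all 0, and its neighbours on both sides scatter around 0 with wide bars for the scarce genes C4a and Tnxb.

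The remaining complement genes gave no call in edgeR either. Of 53 listed 39 were tested, 20 above 0 and 19 below, with a median log2 fold change of 0.00069. edgeR called 0 and DESeq2 1, Sez6l2, against 1.05% of the 12144 genes that DESeq2 gave an adjusted p. How many of the 39 had one is not given here. An unadjusted p under 0.05 was seen for 6 of the 39, against 12.1% of all genes tested. C1qa, a chain of the C1q complex that starts the classical pathway and a microglial product in brain, had 33.2 ± 1.96 CPM without and 33.4 ± 0.595 CPM with stress (edgeR adjusted p = 0.971). C3, the component cut after C4, was scarce at 0.261 ± 0.0979 and 0.312 ± 0.127 CPM (edgeR adjusted p = 0.834). C2, the partner of C4 in the C3 convertase, had a log2 fold change of -0.27 (SE 0.23) and Cfb, its alternative pathway counterpart, one of 0.28 (SE 0.27), with edgeR adjusted p = 0.656 and 0.707. The smallest p-values of the list belonged to 2 genes for neuronal proteins with complement control domains. Sez6l2 had means of 90.3 ± 2.08 and 76.7 ± 3.70 CPM (log2 fold change -0.23, SE 0.05, edgeR adjusted p = 0.344), and Csmd3 at 14.7 ± 6.13 and 24.4 ± 0.597 CPM (log2 fold change 0.74, SE 0.23, edgeR adjusted p = 0.346). Without non-stress 1, edgeR called 4 members (Cd46, Csmd1, Sez6l2 and Csmd3), against 3.85% of all genes tested in that setting.

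Partners of the other segment genes were without a call in both edgeR and DESeq2. The numbers tested are those of edgeR, and DESeq2 could not call members that it gave no adjusted p. Of 40 RNA decay genes, all tested, 20 lay above and 20 below 0, and the median log2 fold change was 0.0013. For 1 of the 40 the unadjusted edgeR p was under 0.05, against 12.1% of all genes tested. Ttc37, the scaffold of the Ski complex that holds the Skiv2l helicase, had a log2 fold change of -0.09 (SE 0.09, edgeR adjusted p = 0.709), and Xrn1, the exonuclease that acts after decapping, one of 0.08 (SE 0.19, edgeR adjusted p = 0.890). The decapping enhancer gene Edc3 (log2 fold change -0.14) and the ribosome rescue gene Pelo (-0.34) had the smallest p-values, with edgeR adjusted p = 0.401 and 0.414. Of 31 steroid synthesis genes measured, 18 were tested, 6 above and 12 below 0, with a median of -0.07. Among these 18, 1 had an unadjusted edgeR p under 0.05, against 12.1% of all genes tested. Cyp11a1, which makes the first steroid from cholesterol, stood at 16.8 ± 0.756 and 15.9 ± 0.685 CPM (edgeR adjusted p = 0.697), and Hsd11b1, which regenerates active glucocorticoid inside cells, at 20.8 ± 1.28 and 22.1 ± 0.689 CPM (edgeR adjusted p = 0.632). Sult2b1, a steroid sulfotransferase gene, and Akr1c18, which inactivates progesterone, had log2 fold changes of -0.18 and -0.30 (edgeR adjusted p = 0.401 and 0.424).

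Of 24 tenascin and matrix genes 23 were tested, 13 above and 10 below 0, with a median log2 fold change of 0.04. Among these 23, 1 had an unadjusted edgeR p under 0.05, against 12.1% of all genes tested. Tnr, the tenascin of perineuronal nets, stood at 30.7 ± 3.11 and 28.5 ± 2.53 CPM (edgeR adjusted p = 0.655) and Tnc, a tenascin of glia, at 0.719 ± 0.160 and 0.501 ± 0.320 CPM (edgeR adjusted p = 0.636). Fn1, the fibronectin gene, had a log2 fold change of -0.41 (SE 0.10, edgeR adjusted p = 0.344) and the collagen gene Col5a2 one of 0.63 (SE 0.29, edgeR adjusted p = 0.426). Without non-stress 1, edgeR called Fn1 and Dcn, against 3.85% of all genes tested in that setting.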

How the data were processed

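RNA was sequenced from the anterior cingulate cortex in 6 libraries, 3 per group. Per the submitters' processing notes, Trimmomatic 0.38, HISAT2 and StringTie were used with build GRCm38 (mm10). How counts were derived, which annotation release was taken, and how strand and reads that fit several genes were handled is not given in the sources used here. The labels' protocols name a SMARTer low-input kit and TruSeq construction. The deposited counts are whole numbers per gene and were used unchanged, and replicates of a group differed by more than sampling noise.

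CPM are counts over the library's total. edgeR 4.0.16 (R 4.3.3, TMM, filterByExpr, quasi-likelihood test, group as the single term, two-sided) was fitted to all genes, with Benjamini-Hochberg adjusted p under 0.05 as threshold, and was tried on simulated counts. A prior count of 2 was used for log2 CPM. DESeq2 1.42.0, other size factors, no filter, each library left out, a replicate block and summed copies were the alternatives. Positions are RefSeq's for GRCm38, and transcripts, exons and lengths are those of GENCODE M21. Copies were aligned locally with Biopython 1.88 (match 2, mismatch -3, gap opening -5, gap extension -2).

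The segment genes were chosen with earlier results of these data known, and so were the lists. All 8 genes were to be named with all counts, and of each list the called members or otherwise the 2 of smallest p-value, with C1qa, C3, Cfb, C2, Ttc37, Xrn1, Tnr, Tnc, Hsd11b1, Cyp11a1 and the nearest class III gene on either side. The 3 genes most like Stk19-ps1 and C4b in profile were added, and those for C4b are not reported here. Markers of other cells were also summed. For non-stress and stress libraries they ranged from 244 to 247 and 233 to 249 CPM for microglia, 143 to 158 and 146 to 153 for endothelium, 80.0 to 82.4 and 75.3 to 77.3 for mural cells, 7.73 to 11.9 and 4.06 to 11.6 for choroid plexus, 216 to 279 and 221 to 286 for blood, and 2.04 to 2.69 and 1.61 to 2.60 for adrenal cortex.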

Additional observations from a re-analysis of the deposited data

How the results depend on the processing

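The number of genes called by edgeR over the whole table was 1, and it was 127 with DESeq2's Wald test, 2 with the replicate block and 0 with the copies of each pair summed before the fit (2320 at an unadjusted p under 0.05, and 120 by DESeq2 on the summed table). Leaving out each library in turn gave 1 to 756 calls, the highest without non-stress 1, and the cause was not tested. The corresponding ranges were 0 to 4 for complement members, 0 to 2 for tenascin and matrix members and 0 to 1 for class III members, and DESeq2 called 1 complement member. The bound for Stk19-ps1 ranged from 43.4-fold to 71.7-fold over the libraries left out. Without a non-stress library the floor rests on fewer libraries, and without a stress library the observed stress mean shifts. Deviations of same-numbered libraries from their group means correlated at 0.016, -0.030 and 0.021 over 19227 genes. With so few libraries per group, these values cannot show whether libraries of the same number were handled as pairs. The replicate block changed no sign among the segment genes and left the list counts as they were. Log2 fold changes of C4a, Tnxb, Skiv2l and both summed pairs kept their sign under every alternative run. That of Stk19, near 0, ran from -0.033 to 0.040. Low counts limit C4b, C4a and Tnxb, whose differences lay within the spread between libraries.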
